A study of Mus musculus with 24 samples.

Results

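Cannabidiol (CBD) and Δ9-tetrahydrocannabinol (THC) were compared in BV-2 cells in the absence of lipopolysaccharide (LPS), on the 6 of the 24 arrays of the series whose condition label is CBD (2 arrays) or THC (4 arrays). BV-2 cells are immortalized mouse microglia, a cell type of the brain that acts as its resident macrophage. The CBD cells and the THC cells each received their cannabinoid at 10 µM for 6 h from ethanol stocks, so that the only labelled difference between them is the compound. Untreated cells (control, 6 arrays) are given beside both. A second pair of groups, CBD+LPS (2 arrays) and THC+LPS (4 arrays), received the same cannabinoids for 2 h before LPS, a bacterial cell wall component, was added for another 4 h, and these arrays are separate from those without LPS. The study's methods speak of 4 arrays per treatment and its results of sextuplicates, whereas the labels give the numbers above and no separate cultures, so that p-values measure the spread between these arrays, which may be technical.

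CBD and THC are isomers from the cannabis plant. THC carries a closed pyran ring where CBD carries a free phenol group and an open ring, and THC is an agonist of the cannabinoid receptors CB1 and CB2 for which CBD has little affinity. Several of the genes with the largest differences between the CBD and the THC arrays belong to the integrated stress response. In this pathway kinases that sense amino acid shortage, heme shortage, unfolded protein or double-stranded RNA phosphorylate the translation initiation factor eIF2, general protein synthesis falls, and the transcription factor ATF4 is translated. ATF4 then raises transcription factors such as CHOP, amino acid transporters, amino acid enzymes and tRNA synthetases, in part through the composite element that it binds with C/EBP proteins.

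Levels are log2 signals after background correction and quantile normalization, a difference is CBD minus THC on that scale, and a probe was called where the adjusted p of limma's moderated test (Benjamini-Hochberg over all 24611 probes) was under 0.05. An added offset of 16 understates differences of dim probes. Of all probes, 42.2 to 44.6% were detected per array, that is, above its negative controls at a detection p under 0.05, and 38.9% were detected on all 6 arrays. Correlations over all probes were 0.990 between the CBD arrays, 0.990 to 0.997 between THC arrays, and 0.980 to 0.996 between CBD and THC arrays. Of 12 measured microglia and macrophage markers 10 were detected on at least 1 of the 6 arrays and 8 on all 6, with P2ry12 and Sall1 at background. None of these markers was called, and their summed linear signal was 26098 to 31902 on the CBD arrays and 33340 to 43348 on the THC arrays. The fibroblast markers were at background on all 6 arrays, and 6 of 7 astrocyte markers were too. However, 2 of 7 neuron markers (Tubb3 and Syp) and 1 of 5 oligodendrocyte markers (Cnp) were detected on all 6 arrays. Of 5 measured T and B cell markers, 2 were detected on at least 1 array and none on all 6. Whether fewer cells of a kind or less RNA per cell lies behind a lower level cannot be told apart in bulk RNA.

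CBD and THC cells differed at 182 probes. The signal was higher with CBD at 128 probes (0.520% of all probes) and lower at 54 (0.219%). The study's own threshold, an unadjusted p of 0.005, took in 413 higher and 264 lower probes. The higher probes named 107 genes, 38 of the probes differed at least 2-fold and 14 at least 4-fold, and the named genes with the largest differences were Aqp9, Ddit3 and Mt2. The lower probes named 48 genes, of which Kctd12, Cdc6 and Nfam1 differed most, 9 of these probes differed at least 2-fold and none 4-fold. Both CBD arrays lay above all 4 THC arrays at each of the 128 probes and below them at each of the 54, whereas over all probes such separation occurred at 8.78% upward and 8.76% downward. The called probes were chosen by their difference on these same arrays, so that their separation is no independent support. An exact permutation test of 2 arrays against 4 cannot give a two-sided p below 0.0667, so that single genes rest on the moderated test, whose spread was estimated over all 24 arrays. With only the 6 CBD and THC arrays in the limma fit, no probe was called, although 1105 probes were higher and 899 lower at an unadjusted p under 0.05. With arrays scaled by their medians, 5 probes were higher and none lower in limma (150 and 97 at an unadjusted p under 0.05), and of the called genes named by rule Trib3 alone passed.

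The CBD arrays were unequal. CBD replicate 1 lay further from the THC mean than CBD replicate 2 at 113 of the 128 higher probes and at 48 of the 54 lower ones. The median difference over the higher probes was 0.82 for CBD replicate 1 and 0.42 for CBD replicate 2, and over the lower probes -0.73 and -0.43. Without CBD replicate 1, 11 probes were higher and 2 lower. Without CBD replicate 2, 432 were higher and 224 lower. Leaving out a THC array gave 35 to 78 higher and 17 to 36 lower probes, the fewest without THC replicate 3. All 182 probes kept the direction of their difference whichever array was left out, and 9 of them remained called each time, among them Mt2, Trib3, Prpf38b and Pi16. Of the 38 called genes that were named by rule, 2 were called without CBD replicate 1, namely Mt2 and Trib3.

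Several regulators of the integrated stress response were higher with CBD than with THC. Of 23 measured genes, 6 were called higher, against 0.520% of all probes, 1 was called lower and the others did not pass. The list was written with earlier results of these data known, so that its share is not an independent test. The median difference was 0.76, against 0.00 over all probes. Ddit3, which encodes the transcription factor CHOP, had 13.24 and 10.996 on the CBD arrays, against 8.997, 9.01, 8.95 and 9.34 on the THC arrays, and controls ranged from 8.23 to 8.51 with a median of 8.30. Both CBD arrays were well above every THC array, and the THC arrays were above every control. The difference was 3.05 ± 0.52 (SE), an 8.26-fold higher signal (adjusted p = 0.0114). Trib3, a pseudokinase that CHOP and ATF4 induce, had 10.64 and 9.28 with CBD and 7.82, 7.97, 7.76 and 7.96 with THC, against a control median of 7.68. The THC arrays lay close to the floor of the array, and the difference was 2.08 ± 0.26 (SE, adjusted p = 0.00053).

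Nupr1, a stress-induced nuclear protein, had 13.62 and 12.55 with CBD and 11.33, 11.22, 10.30 and 11.25 with THC, against 9.59 to 10.43 in control cells. THC replicate 3 was lowest and the only THC array within the control range. The difference was 2.06 ± 0.40 (SE, adjusted p = 0.021). Ppp1r15a encodes GADD34, the phosphatase subunit that reverses eIF2 phosphorylation, and had 11.45 and 9.97 with CBD and 9.26, 9.16, 9.46 and 9.38 with THC. Its difference of 1.397 (adjusted p = 0.0322) came mostly from CBD replicate 1. Nfe2l1, a transcription factor of proteasome genes, and Ddit4, an inhibitor of mTORC1, differed by 0.84 and 0.54 (adjusted p = 0.0148 and 0.0157 by limma). Eif2ak1, the heme-sensing eIF2 kinase, was the member called lower, with 11.13 and 11.16 on the CBD arrays and 11.41 to 11.59 on the THC arrays (difference -0.35, adjusted p = 0.0442).

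The other members of this list did not pass, and their differences spanned both directions. Atf4 had 12.86 and 12.57 with CBD and 10.96 to 11.76 with THC, so that the groups did not overlap, and its difference was 1.25 with a 95% interval of 0.48 to 2.02 (adjusted p = 0.143). Chac1, a glutathione-degrading enzyme and ATF4 target, had 11.69 and 11.40 with CBD and 9.26, 10.62, 8.61 and 10.18 with THC, and the wide spread between the THC arrays left its difference of 1.88 short of the threshold (adjusted p = 0.307). Among the other eIF2 kinases Eif2ak3, which encodes PERK, differed by 0.02, Eif2ak2, which encodes PKR, by -1.05 (adjusted p = 0.365), and Eif2ak4, which encodes GCN2, was not detected in either group.

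**Figure D1:**
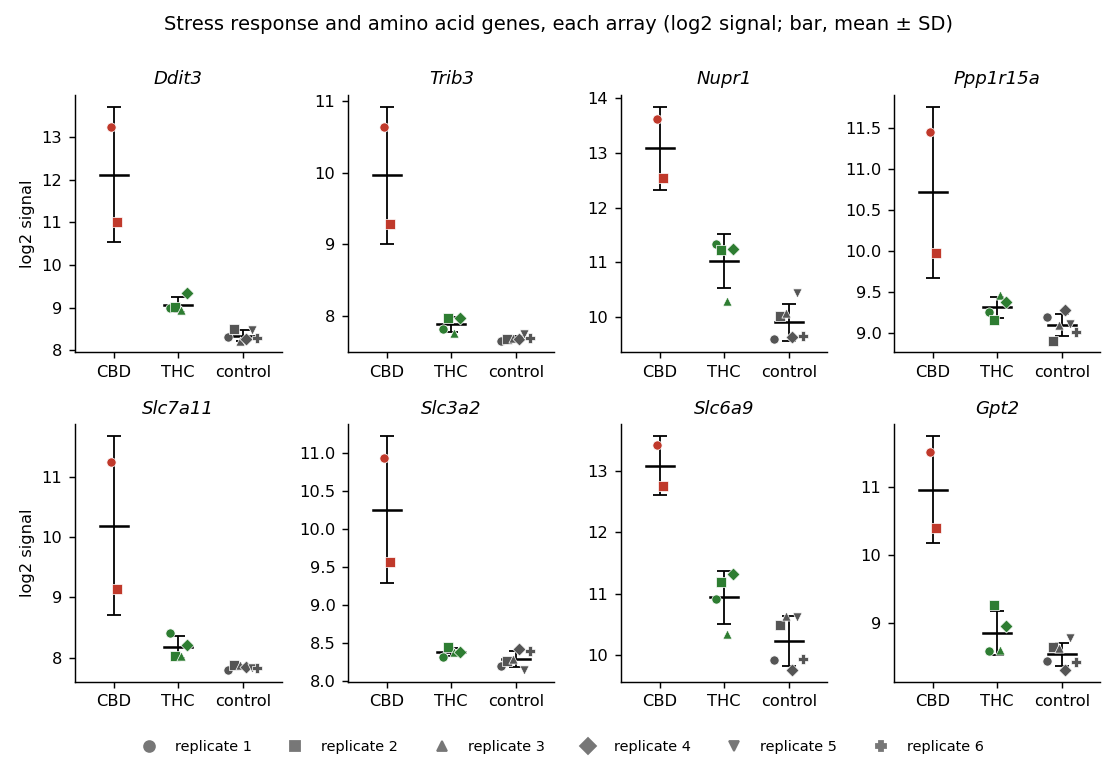
Log2 signal of 8 stress response and amino acid genes (vertical axis, each panel with its own range) in CBD, THC and control cells (horizontal axis); each symbol is 1 array, its shape the replicate number, and the bar gives the mean ± SD of 2, 4 and 6 arrays. Both CBD arrays lie above all THC arrays in every panel, and CBD replicate 1 lies above CBD replicate 2, for Ddit3 at 13.24 against 10.996.

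Single arrays decided several of these calls. Without CBD replicate 1 the difference was 1.93 for Ddit3, 1.44 for Trib3, 1.52 for Nupr1 and 0.67 for Ppp1r15a, and of the 6 genes only Trib3 passed (adjusted p = 0.029). Without CBD replicate 2 it was 4.17 for Ddit3, 2.77 for Trib3, 2.5997 for Nupr1 and 2.14 for Ppp1r15a, and 9 list members passed upward. Leaving out any of the THC arrays ended the call of Ppp1r15a (adjusted p up to 0.065), and leaving out THC replicate 3 ended those of Nupr1 (0.063) and Ddit4 (0.0501). The call of Eif2ak1 was lost without any 1 of the 6 arrays.

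Some genes of amino acid supply were called too. Of 20 measured amino acid transporters 3 were called higher and 1 lower, of 17 enzymes of serine, asparagine and one-carbon metabolism 2 were called higher, and of 15 cytosolic tRNA synthetases 1 was, with median differences of 0.10, 0.10 and 0.28, so that most members did not pass. Over all probes 0.520% were called higher, and these lists too were written with earlier results of these data known. Slc7a11 and Slc3a2 encode the light and the heavy chain of the cystine-glutamate exchanger. Slc7a11 had 11.24 and 9.14 with CBD and 8.41, 8.03, 8.03 and 8.21 with THC, against 7.80 to 7.88 in control cells. The difference was 2.02 ± 0.41 (SE, adjusted p = 0.0285), and it was 0.99 without CBD replicate 1 and 3.07 without CBD replicate 2. Slc3a2 had 10.94 and 9.57 with CBD, whereas all 4 THC arrays lay between 8.32 and 8.45, within the control range of 8.15 to 8.42 or just above it. Its difference was 1.87 ± 0.31 (SE, adjusted p = 0.00854).

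Slc6a9, the glycine transporter GlyT1, had 13.42 and 12.74 with CBD and 10.91, 11.19, 10.34 and 11.32 with THC, against 9.76 to 10.64 in control cells (difference 2.14, adjusted p = 0.0114). The THC arrays lay between control and CBD arrays for this gene, although THC replicate 3 overlapped the controls. Gpt2, the mitochondrial alanine aminotransferase, had 11.51 and 10.40 with CBD and 8.59, 9.27, 8.61 and 8.96 with THC (difference 2.10, adjusted p = 0.00722). Aldh1l2, a mitochondrial folate enzyme, had 9.94 and 9.31 with CBD and 7.95 to 8.69 with THC (difference 1.28, adjusted p = 0.024). Slc7a6, a cationic and neutral amino acid exchanger subunit, was the transporter called lower, with 9.31 and 9.83 against 10.24, 10.51, 10.39 and 10.27 (difference -0.78, adjusted p = 0.0322). Slc1a4, a neutral amino acid transporter, had 12.05 and 11.87 with CBD and 9.39 to 10.80 with THC, and missed the threshold at 1.77 (adjusted p = 0.1).

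Of the synthetases that charge tRNAs, Cars in the cytosol and Tars2, 1 of 14 measured in the mitochondrion, were called higher, by 0.82 and 0.40 (adjusted p = 0.0484 and 0.0385 by limma), while a second probe of Cars, not detected, gave 0.04. Both calls were lost without either CBD array and without 3 of the THC arrays. Sars, Nars and Aars had positive differences of 0.95, 0.72 and 0.67 that missed it (adjusted p = 0.0548, 0.122 and 0.062). Asns, the asparagine synthetase and a well-known ATF4 target, had 12.85 and 12.62 with CBD and 12.05, 12.25, 11.92 and 12.54 with THC. The lower CBD array was barely above the highest THC array, and the difference of 0.54 had an interval of 0.08 to 1.00 (adjusted p = 0.371). Phgdh and Mthfd2, enzymes of serine synthesis and mitochondrial folate metabolism, differed by 0.52 and 0.55 and did not pass (adjusted p = 0.681 and 0.212). Without CBD replicate 1 none of the genes of this supply group was called higher, without CBD replicate 2 there were 9, and without THC replicate 3 there were 3, with the calls of Slc7a11, Aldh1l2 and Cars lost. The calls of Slc7a11 and Slc7a6 were also lost without THC replicate 2 or THC replicate 4.

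Promoters of these genes are shown because, of the called genes named by rule, 4 that were higher and 1 that was lower (Ung) carry the ATF4-C/EBP composite element within 250 bases before to 50 after an annotated start site. The element was searched as TGATGNAA on both strands in the RefSeq promoter windows of GRCm38.p6, and 3.97% of all 32851 windows hold a match. Among the genes called higher 90 of 107 had windows, and 12 of their 134 windows (8.96%) hold one, against 2 of 53 windows (3.77%) of the genes called lower. Other searched elements were also more frequent in windows of called genes than in all windows, in both directions. For genes called higher, genes called lower and all windows, the E2F site had 9.70, 9.43 and 5.17%. The antioxidant response element had 15.67, 20.75 and 12.39%, and the metal response element 34.33, 33.96 and 25.70%. Matches are in capitals and positions count from the start site. Slc7a11 has 2 matches in opposite orientation at -66 and -47, Nupr1 has 1 at -110, Trib3 has 1 at 15 and Aqp9 has 1 at -64 of the window shown and none in its other window. Ung has 1 at -186 (not shown), Asns and Herpud1, whose differences did not pass, have 1 each at -23 and -112, and the windows of Ddit3, Slc3a2, Slc6a9 and Gpt2 hold no match to these letters.
Slc7a11 (chr3:50443564-50443863, minus strand): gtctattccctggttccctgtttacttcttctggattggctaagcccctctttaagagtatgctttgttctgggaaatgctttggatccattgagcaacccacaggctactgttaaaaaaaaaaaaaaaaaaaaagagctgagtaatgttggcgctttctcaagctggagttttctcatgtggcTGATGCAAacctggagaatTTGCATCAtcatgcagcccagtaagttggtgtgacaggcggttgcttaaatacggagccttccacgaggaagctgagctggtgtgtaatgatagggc
Nupr1 (chr7:126625421-126625720, minus strand): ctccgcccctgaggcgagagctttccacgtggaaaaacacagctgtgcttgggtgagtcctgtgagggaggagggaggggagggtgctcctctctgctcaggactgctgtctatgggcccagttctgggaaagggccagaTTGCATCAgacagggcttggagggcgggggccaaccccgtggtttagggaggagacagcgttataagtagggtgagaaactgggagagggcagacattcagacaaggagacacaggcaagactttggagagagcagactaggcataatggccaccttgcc
Trib3 (chr2:152344011-152344310, minus strand): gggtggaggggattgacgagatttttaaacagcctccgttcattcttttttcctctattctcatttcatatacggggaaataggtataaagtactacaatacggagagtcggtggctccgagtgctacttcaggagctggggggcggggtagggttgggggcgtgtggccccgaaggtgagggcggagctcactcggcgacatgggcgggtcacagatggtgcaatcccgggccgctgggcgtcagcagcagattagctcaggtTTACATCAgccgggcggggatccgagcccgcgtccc
Aqp9 (chr9:71162584-71162883, minus strand): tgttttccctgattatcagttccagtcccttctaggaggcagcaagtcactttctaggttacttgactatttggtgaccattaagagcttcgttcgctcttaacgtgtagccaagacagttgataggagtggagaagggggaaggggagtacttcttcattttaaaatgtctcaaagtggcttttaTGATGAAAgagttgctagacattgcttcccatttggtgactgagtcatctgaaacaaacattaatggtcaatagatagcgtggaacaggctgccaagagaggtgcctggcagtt
Asns (chr6:7693160-7693459, minus strand): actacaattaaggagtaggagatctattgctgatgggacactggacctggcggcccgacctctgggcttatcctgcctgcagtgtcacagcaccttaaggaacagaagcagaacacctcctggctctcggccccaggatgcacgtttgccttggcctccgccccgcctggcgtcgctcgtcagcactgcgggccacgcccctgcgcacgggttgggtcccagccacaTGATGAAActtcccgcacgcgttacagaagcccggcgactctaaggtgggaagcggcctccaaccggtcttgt

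Aqp9 showed the largest difference of all probes. It encodes an aquaglyceroporin, a channel for water, glycerol and other small uncharged solutes. The signal was 12.46 and 11.20 on the CBD arrays, against 9.19, 8.65, 8.34 and 8.81 on the THC arrays, and the controls ranged from 7.89 to 8.20. The 3 groups did not overlap, with controls lowest and CBD highest. The difference between the compounds was 3.08 ± 0.38 (SE), an 8.48-fold higher signal with a 95% interval of 4.86 to 14.8 (adjusted p = 0.00053), while CBD lay 3.79 and THC 0.71 above control. Without CBD replicate 1 the difference was 2.47 (adjusted p = 0.061). Of 27 measured aquaporins and phagocyte surface receptors Aqp9 was the only one called, against 0.520% of all probes called higher. The list median was -0.03.

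Of the metallothioneins, small proteins that bind zinc and copper and are induced through metal response elements, Mt2 was called and Mt1 was not. Mt2 had 13.17 and 13.04 on the CBD arrays, against 9.93, 10.52, 10.20 and 10.65 on the THC arrays and 9.39 to 10.31 in control cells. The CBD arrays nearly coincided, and THC overlapped the controls. The difference was 2.78 ± 0.26 (SE), a 6.88-fold higher signal with an interval of 4.74 to 9.99 and the smallest adjusted p of all probes (3.4e-05), and Mt2 was called whichever array was left out. Mt1 had 14.72 and 14.79 with CBD and 14.84, 14.76, 14.81 and 14.68 with THC, against 14.60 to 14.97 in control cells. All 3 groups overlapped, and the difference of -0.02 had an interval of -0.21 to 0.17 (adjusted p = 0.985). Only 0.268% of all probes were brighter than that of Mt1, so that this probe lies near the top of the array's range. The zinc exporter Slc30a1 had 11.07 and 10.83 with CBD and 8.71 to 9.94 with THC, and its difference of 1.46 just missed the threshold (adjusted p = 0.058). Mt2 was the only called gene of 21 measured metallothioneins and zinc transporters, whose median difference was -0.01. Over all probes 0.520% were called higher.

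Both metallothionein promoters are shown with matches to the metal response element, searched as TGCGCNC or TGCACNC on both strands, in capitals. One of these occurs in 25.70% of all windows. Mt2 has 4 matches, at -223, -128, -50 and 5, and Mt1 has 3, at -23, 3 and 21, so that matches are found in the promoters of both genes.
Mt2 (chr8:94172368-94172667, plus strand): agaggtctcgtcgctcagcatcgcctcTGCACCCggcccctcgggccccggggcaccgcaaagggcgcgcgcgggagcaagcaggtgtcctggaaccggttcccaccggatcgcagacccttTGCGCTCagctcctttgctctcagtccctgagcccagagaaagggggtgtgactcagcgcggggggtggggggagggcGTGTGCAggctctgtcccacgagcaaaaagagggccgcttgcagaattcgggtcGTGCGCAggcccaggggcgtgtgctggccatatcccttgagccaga
Mt1 (chr8:94178839-94179138, plus strand): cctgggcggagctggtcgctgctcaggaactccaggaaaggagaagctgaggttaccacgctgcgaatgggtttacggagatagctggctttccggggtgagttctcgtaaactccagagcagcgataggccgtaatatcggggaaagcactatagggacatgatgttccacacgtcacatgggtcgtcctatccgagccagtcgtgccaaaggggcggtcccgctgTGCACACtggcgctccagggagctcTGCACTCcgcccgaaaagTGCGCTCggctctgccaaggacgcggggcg

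**Figure D2:**
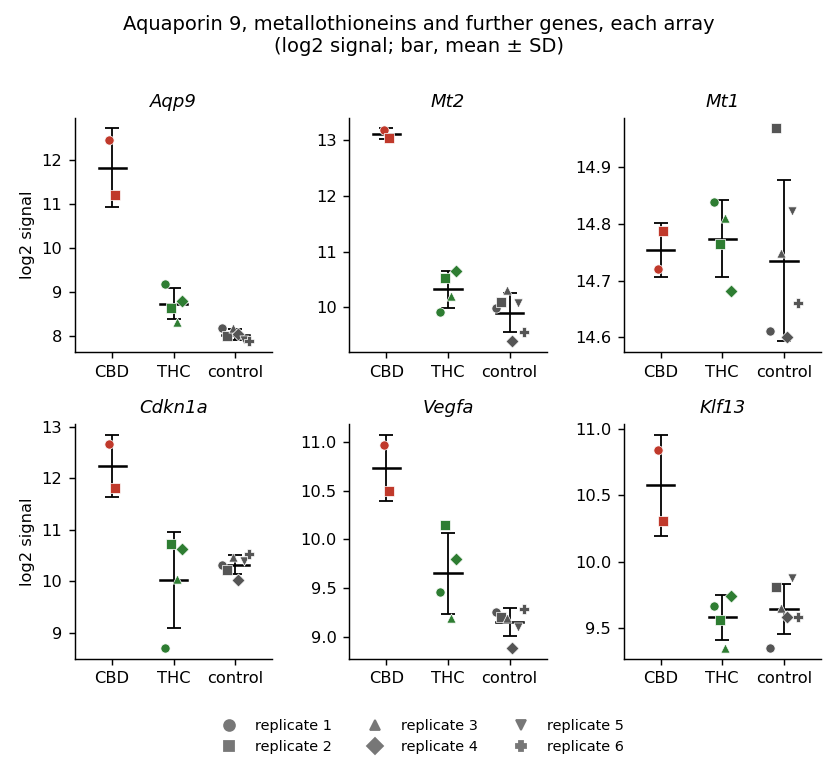
Log2 signal of 6 genes (vertical axis, each panel with its own range) in CBD, THC and control cells; each symbol is 1 array and the bar gives the mean ± SD of 2, 4 and 6 arrays. Mt2 is at 13.17 and 13.04 with CBD and at most 10.65 with THC, while the panel of Mt1 spans only 14.60 to 14.97 and its groups overlap.

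Antioxidant and iron genes differed less clearly. Of 27 measured NRF2 targets and genes of glutathione or thioredoxin metabolism 1 was called higher, against 0.520% of all probes. The list median was 0.16, and 20 of the 27 differences were positive, against 11798 of 24611 over all probes. Both CBD arrays lay above all THC arrays at 8 members and below them at 1, against 8.78% and 8.76% of all probes. The called gene was Sqstm1, which encodes the autophagy receptor p62. It had 14.98 and 13.92 with CBD and 12.70, 13.18, 12.88 and 13.15 with THC (difference 1.47, adjusted p = 0.0199). The call was lost without CBD replicate 1 (0.94) and without THC replicate 3 (adjusted p = 0.058). Gclm, a subunit of the rate-limiting enzyme of glutathione synthesis, had 14.40 and 13.40 with CBD and 12.50, 12.69, 12.53 and 13.19 with THC, a difference of 1.17 with an interval of 0.43 to 1.91 (adjusted p = 0.157). Hmox1, heme oxygenase 1, had 15.31 and 14.33 with CBD and 13.19, 14.17, 13.97 and 14.01 with THC. The groups did not overlap, but CBD replicate 2 was close to the highest THC array, and the difference of 0.98 had an interval of 0.17 to 1.80 (adjusted p = 0.35). Of 22 genes of heme and iron handling none was called by limma. The iron exporter Slc40a1 had 13.92 and 11.98 with CBD and 9.74, 11.20, 11.16 and 11.54 with THC (2.04, adjusted p = 0.245), and the transferrin receptor Tfrc had 12.88 and 13.11 against 13.38 to 13.86 (-0.61, adjusted p = 0.0575).

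None of 22 measured endoplasmic reticulum chaperones and degradation factors was called by limma, and the list median was -0.01. At 2 of them both CBD arrays lay above all THC arrays and at 2 below, near the shares over all probes of 8.78% and 8.76%. Hspa5, the chaperone BiP, had 9.19 and 8.90 with CBD and 8.90, 9.65, 9.66 and 9.72 with THC. The groups overlapped, THC replicate 1 stood apart from the other THC arrays, and the difference of -0.43 had an interval of -1.17 to 0.30 (adjusted p = 0.817). Herpud1, a component of protein degradation at this membrane, had 11.34 and 11.44 with CBD and 11.23, 10.70, 10.47 and 10.83 with THC, against 8.93 to 9.89 in control cells. Both compounds lay above every control array for this gene. CBD and THC differed by 0.58 with an interval of 0.10 to 1.06 (adjusted p = 0.35), and Herpud1 was the only gene called between THC and control cells.

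Of 25 measured G1/S cyclins, E2F factors and CDK inhibitors 1 was called higher and 1 lower. The list median was -0.02, and 11 of the 25 differences were positive. Cdkn1a, the CDK inhibitor p21, had 12.66 and 11.81 with CBD and 8.71, 10.73, 10.05 and 10.63 with THC, against 10.03 to 10.52 in control cells. Its difference was 2.21 ± 0.40 (SE, adjusted p = 0.0144), and the second probe of the gene gave 2.49. THC replicate 1 lay below every control, and without THC arrays in turn the difference ranged from 1.77 to 2.44 and remained called, whereas it was not called without CBD replicate 1 (1.78, adjusted p = 0.56). Cdc25a, the phosphatase that activates CDK2, had 9.28 and 10.36 with CBD, against 10.88, 10.90, 10.99 and 10.85 with THC (difference -1.09, adjusted p = 0.039). The cyclins Ccne1 and Ccnd1 had differences of -1.24 and -0.93 and were not called (adjusted p = 0.0641 and 0.197 by limma). The inhibitors Cdkn2b and Cdkn2a had differences of 1.56 and 1.35 and were not called either (adjusted p = 0.177 and 0.292 by limma). Cdkn1a and Cdc25a were the only called genes of this list, against 0.520% of all probes called higher and 0.219% called lower.

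Of 34 measured DNA replication genes 2 were called lower and none higher, the median difference was -0.16, and 5 of the 34 differences were positive. Among all probes 0.219% were called lower, and 11798 of 24611 differences were positive. Cdc6, which loads the MCM helicase at origins, had 9.0004 and 9.74 with CBD and 10.70, 10.81, 10.80 and 10.65 with THC, against 10.37 to 10.82 in control cells. Both CBD arrays were clearly below THC and control arrays, which overlapped each other, and the difference was -1.37 ± 0.22 (SE, adjusted p = 0.0073). A second, dimmer probe of Cdc6 gave -0.01. Ung, the uracil DNA glycosylase, had 7.86 and 8.25 with CBD and 8.57 to 8.69 with THC (difference -0.59, adjusted p = 0.017). Clspn, the checkpoint adaptor claspin, which is not in the list of 34, had 10.20 and 10.92 with CBD and 11.62, 11.53, 11.45 and 11.34 with THC (difference -0.92, adjusted p = 0.0382). Fen1 and Rrm2, a flap endonuclease and a ribonucleotide reductase subunit, had differences of -0.61 and -0.79 that were not called (adjusted p = 0.0706 and 0.107). In every gene of this paragraph CBD replicate 1 was the lower CBD array. Without it none of these genes was called, and Cdc6 then had -0.99 and Ung -0.41, while the calls of Clspn and Cdc25a were also lost without any 1 of the THC arrays.

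A few histone genes, taken by symbols starting H1f, H2ac, H2bc, H3c or H4c, were called higher. Most genes of these families are normally transcribed during DNA synthesis, but whether this holds for each member was not checked. This family was examined after its values had been seen. Of 53 measured genes 7 were called higher and none lower with CBD, the median difference was 0.28 and 45 differences were positive. Among all probes 0.520% were called higher, and 11798 of 24611 differences were positive. H3c6 had 11.67 and 10.19 with CBD and 9.85, 9.68, 9.59 and 9.64 with THC (difference 1.24, adjusted p = 0.0346). H2bc21 had 10.89 and 9.31 with CBD and 9.05, 8.89, 8.74 and 8.79 with THC (difference 1.23, adjusted p = 0.0337). CBD replicate 2 was barely above the THC arrays and CBD replicate 1 far above them. Without CBD replicate 1 none of the histone genes was called, and the differences of H3c6 and H2bc21 were 0.50 and 0.45. Without CBD replicate 2, 22 were called, and the number called was 0 without THC replicate 3 or THC replicate 4, 1 without THC replicate 2 and 5 without THC replicate 1. It was also 0 with median scaling, with the replicate block and with the 6 arrays alone, 11 with detected probes only and 18 at an unadjusted p of 0.005. These genes are nearly identical to each other, so that single members are uncertain on an array.

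**Figure D3:**
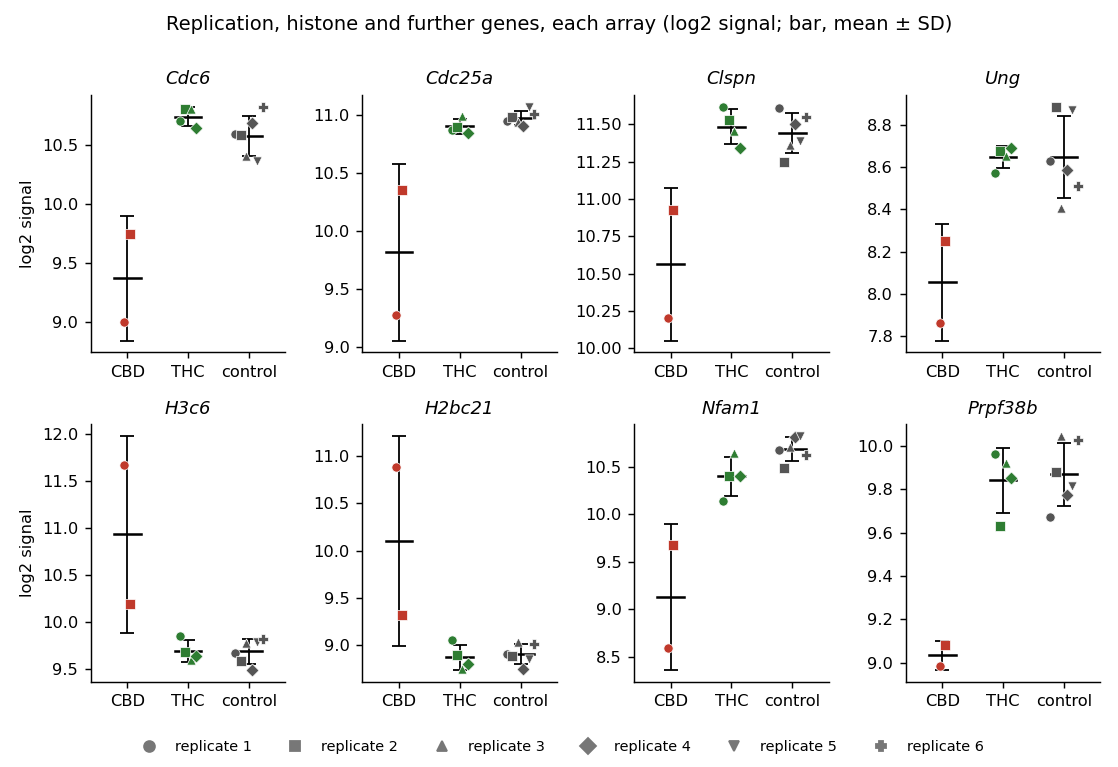
Log2 signal of 8 genes (vertical axis, each panel with its own range) in CBD, THC and control cells; each symbol is 1 array and the bar gives the mean ± SD of 2, 4 and 6 arrays. CBD replicate 1 is the more extreme CBD array in every panel, as in H3c6 at 11.67 against 10.19 for CBD replicate 2, and the CBD arrays of Prpf38b lie closest together.

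Further rises fell among transcription factors and hypoxia genes. Of 20 measured AP-1, ATF and Krüppel-like factors Klf13, Klf7 and Klf4 were called higher, by 0.99, 0.70 and 0.58, with a list median of 0.04. Klf13 had 10.84 and 10.31 with CBD and 9.67, 9.56, 9.35 and 9.74 with THC (adjusted p = 0.0207). Fos, the AP-1 subunit, went the other way without passing, with 9.54 and 9.06 against 10.34 to 10.77 (difference -1.22, adjusted p = 0.21). Of 27 measured glycolysis and hypoxia genes Ndrg1, Vegfa and Pfkp were called higher, by 1.58, 1.08 and 0.69, with a list median of -0.02. For both lists the share of all probes called higher was 0.520%. Vegfa, the vascular endothelial growth factor, had 10.98 and 10.49 with CBD and 9.46, 10.15, 9.19 and 9.80 with THC, against 8.88 to 9.28 in control cells (adjusted p = 0.0406). Ndrg1, a hypoxia-inducible gene, had 10.41 and 8.26 with CBD and 7.67 to 7.80 with THC, with a difference of 0.52 without CBD replicate 1 and 2.66 without CBD replicate 2. Neither group kept a call without CBD replicate 1 or without THC replicate 3.

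Outside the lists, Angptl6, a secreted angiopoietin-like protein, had 12.37 and 10.29 with CBD and 9.06, 8.93, 8.62 and 9.17 with THC (difference 2.39, adjusted p = 0.0385). It was called neither without CBD replicate 1 (1.36) nor without any 1 of the THC arrays (adjusted p up to 0.097). Kctd12, an auxiliary subunit of GABA-B receptors in neurons, had the largest negative called difference, with 8.67 and 9.55 against 11.55, 10.46, 9.90 and 10.25 (-1.43, adjusted p = 0.0484). THC replicate 1 was highest, and the difference was -1.097 without it and not called, nor was it without THC replicate 2 or THC replicate 4 (-1.46 and -1.53). Nfam1, an activating receptor of myeloid and B cells, had 8.59 and 9.68 with CBD and 10.14, 10.41, 10.65 and 10.41 with THC (-1.27, adjusted p = 0.017), and without THC replicate 3 it was not called (adjusted p = 0.058).

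The other large falls were those of Slc35g1, Pomgnt2, Ddx6, B3galnt1 and Phtf2, at -1.17, -1.16, -1.03, -0.94 and -0.88, and none of these was called without CBD replicate 1. The call of B3galnt1 was also lost without THC replicate 2 and that of Pomgnt2 without any 1 of the THC arrays. Pomgnt2 extends the O-mannose glycans of dystroglycan, Ddx6 is an RNA helicase of processing bodies, and B3galnt1 synthesizes globoside. Slc35g1 had 9.60 and 10.32 with CBD and 11.53, 11.13, 10.996 and 10.86 with THC (adjusted p = 0.0073). Ddx6 had 10.31 and 10.85 with CBD and 11.71, 11.73, 11.54 and 11.45 with THC (adjusted p = 0.0131). Prpf38b, a splicing factor singled out here after its values had been seen, had 8.99 and 9.08 with CBD and 9.96, 9.63, 9.92 and 9.85 with THC. The arrays within each group were close, and the difference of -0.81 ± 0.10 (SE, adjusted p = 0.00044) was called without each array in turn.

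**Figure D4:**
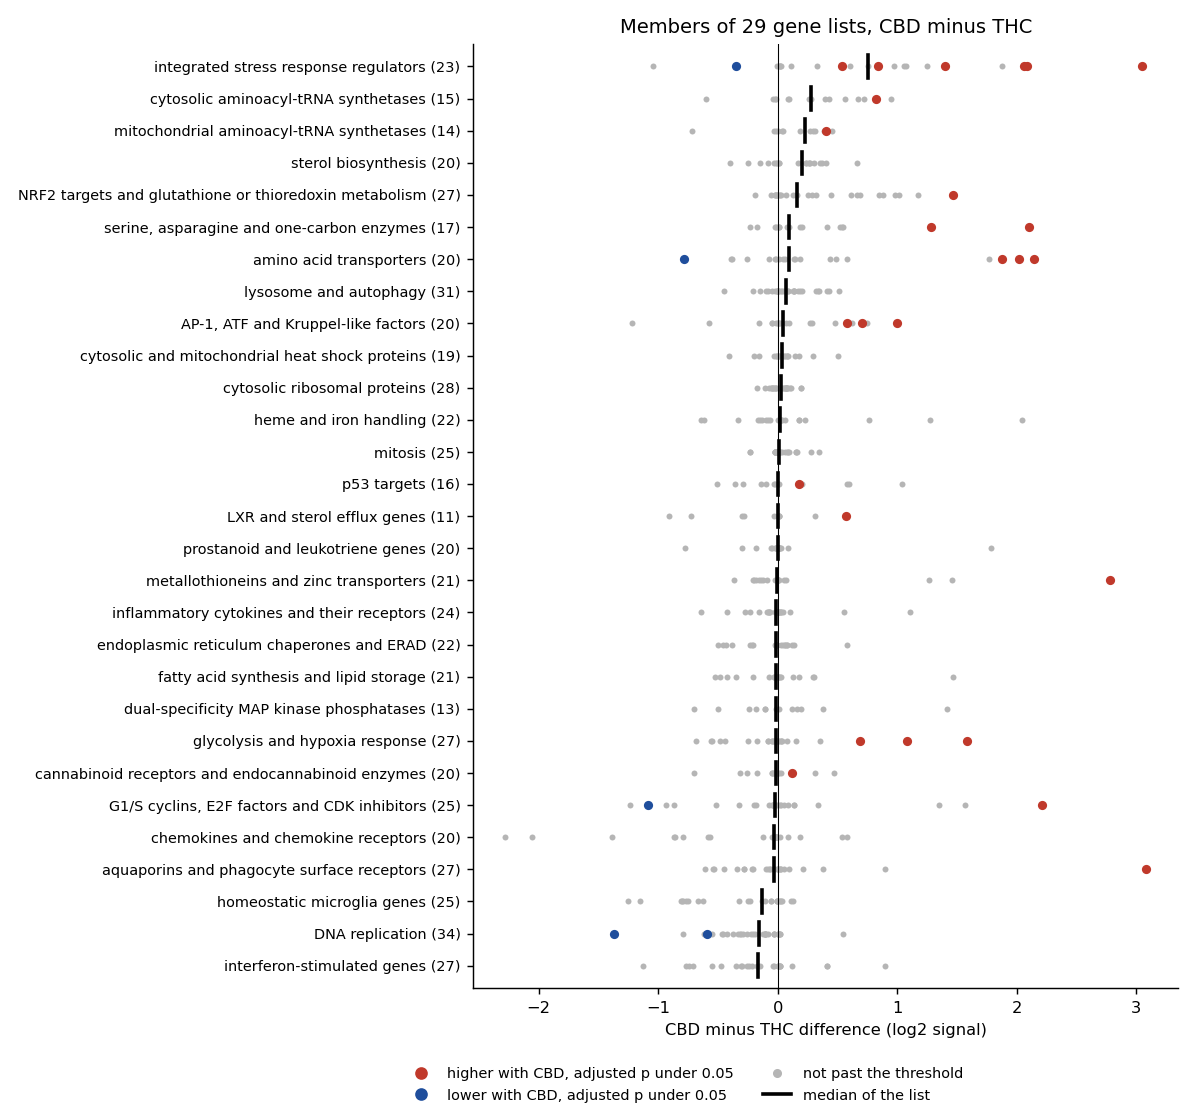
CBD minus THC difference in log2 signal (horizontal axis) for each measured member of 29 gene lists (rows, number of measured members in parentheses); red and blue points are members called higher and lower, grey points are not called, and the black bar is the list median. Regulators of the integrated stress response have the largest median, 0.76, and 6 red points, whereas lists such as ribosomal proteins and mitosis stay near 0 with none called. All lists were written with earlier results of these data known.

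None of 20 measured chemokines and receptors, 24 cytokines and receptors, 27 interferon-stimulated genes or 25 homeostatic microglia genes was called by limma. The list medians were -0.03, -0.01, -0.17 and -0.13. In the same order, both CBD arrays lay below all THC arrays at 7, 3, 1 and 8 members, and above them at 1, 1, 3 and 0. Over all probes these shares were 8.76% below and 8.78% above. The lists were written with earlier results of these data known, so that these counts are not an independent test. Outside these lists Nfam1, described above, was called lower, and Relb, a subunit of NF-κB, was called higher, with 9.73 and 8.77 with CBD and 8.64, 8.29, 8.29 and 8.36 with THC (0.86, adjusted p = 0.0357). The call of Relb was lost without CBD replicate 1 (0.39) and without THC replicate 2, 3 or 4. Single list members had large differences with a wide error. Ccl2, the monocyte chemoattractant, had 9.09 and 9.45 with CBD and 11.49, 10.62, 12.52 and 10.66 with THC, against 10.07 to 13.06 in control cells. Both CBD arrays were below all THC arrays and all controls, but THC and control arrays spread widely, and the difference of -2.06 had an interval of -3.31 to -0.80 (adjusted p = 0.138). Ccl7 followed the same pattern, with 9.14 and 9.13 with CBD and 11.93, 10.41, 12.92 and 10.41 with THC (-2.28, adjusted p = 0.212). Ccl3 had 13.47 and 13.79 with CBD and 14.79, 14.13, 14.70 and 14.35 with THC (-0.86, adjusted p = 0.0518). Tgfbr2 and Mertk, receptors for TGF-β and for bridging molecules on dying cells, missed the threshold at -0.80 and -0.67 (adjusted p = 0.0512 and 0.0526). C1qa, C1qb and C1qc, the complement C1q chains, had differences of -0.81, -0.79 and -0.77 that were not called. In each of these chains both CBD arrays nevertheless lay below all THC arrays.

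Of 20 measured cannabinoid receptors and endocannabinoid enzymes 10 were detected. Cnr2, the CB2 receptor, had 8.06 and 7.92 with CBD and 7.86, 8.08, 8.20 and 8.03 with THC, which overlapped, and the difference of -0.05 had an interval of -0.20 to 0.10 (adjusted p = 0.933). Pparg was the gene of this list called higher, with 7.84 and 7.76 against 7.64 to 7.71, although it was not detected on any THC array, was not called without CBD replicate 1, THC replicate 2 or THC replicate 3, and 2 dimmer probes of the gene gave -0.01 and -0.02. In sterol synthesis none of 20 measured genes was called and the list median was 0.20. Hmgcs1, the synthase at the start of this pathway, had 14.01 and 14.12 with CBD and 13.32, 14.34, 13.78 and 14.14 with THC, a difference of 0.17 with an interval of -0.28 to 0.62 (adjusted p = 0.919). Abca1, the cholesterol exporter, was not detected on any CBD or THC array. Among 11 genes of sterol efflux Cyp27a1 was called higher by 0.57, and among 16 p53 targets Bbc3, which encodes the cell death protein PUMA, by 0.18. For these lists and that of Pparg the share of all probes called higher was 0.520%. Bbc3 had 7.72 to 7.75 with THC, where the lowest detected signal of each THC array was 7.74 to 7.75. Its THC values thus lie at the floor, and the size of its difference is uncertain. The call of Cyp27a1 was lost without either CBD array and without THC replicate 2, 3 or 4, and that of Bbc3 without either CBD array and without THC replicate 1 or 3. No gene was called in the lists of fatty acid synthesis, mitosis, prostanoids, MAP kinase phosphatases, lysosome and autophagy, heat shock proteins or cytosolic ribosomal proteins.

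The distance of each compound from control cells, which share the 6 control arrays, stood beside these differences. CBD cells were higher than control at 408 probes (1.66%) and lower at 232 (0.943%), whereas THC cells were higher at 1 probe (0.00406%), that of Herpud1, and lower at none in limma, with 1090 probes at an unadjusted p under 0.05. Over the 128 probes higher with CBD than with THC the median distance from control was 0.68 for CBD and 0.03 for THC, and over the 54 lower probes it was -0.58 for CBD and 0.01 for THC. Because these probes were chosen by the CBD minus THC difference on the same arrays, that choice affects the medians of both compounds. For single genes CBD and THC lay 3.77 and 0.72 above control in Ddit3, 3.18 and 1.12 in Nupr1, 2.85 and 0.71 in Slc6a9, 3.34 and 1.46 in Chac1, and 1.91 and 1.33 in Herpud1. In Mt2 these distances were 3.20 and 0.42, and in Cdc6 -1.20 and 0.16.

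The same pair of compounds was compared again in the presence of LPS, on other arrays, which share the normalization and the estimate of spread with those above. CBD+LPS exceeded THC+LPS at 139 probes (0.565%) and lay below it at 43 (0.175%). Of the 128 probes higher with CBD without LPS, 126 had a difference of the same sign with LPS and 43 were called in the same direction, which is 33.59% of them and 30.94% of the 139. Of the 54 lower probes all had the same sign and 14 were called, 25.93% of them and 32.56% of the 43. Over all probes 60.8% had the same sign in both comparisons, and 73.38% of those detected on every CBD or every THC array. No called probe was called in the opposite direction.

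Mt2 and Aqp9 differed with LPS by nearly as much as without it. Mt2 had 12.67 and 13.09 with CBD+LPS and 10.0035, 10.40, 10.11 and 9.95 with THC+LPS (difference 2.76, adjusted p = 2.1e-05), and Aqp9 differed by 2.85 (adjusted p = 0.0011). Among the stress response and amino acid genes, Ddit3, Trib3, Slc6a9, Gpt2, Slc3a2 and Aldh1l2 were called with LPS too, at 2.29, 1.84, 2.20, 2.02, 1.96 and 1.20. Nupr1, Slc7a11, Ppp1r15a and Cdkn1a had smaller differences with LPS, at 0.72, 1.096, 0.41 and 0.45, and were not called there (adjusted p = 0.55, 0.27, 0.68 and 0.77). Cdc6, Nfam1 and Ung likewise had -0.45, -0.49 and -0.18. The test of the change itself called 2 of 24611 probes, with 924 at an unadjusted p under 0.05 in limma, and neither was one of these genes.

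**Figure D5:**
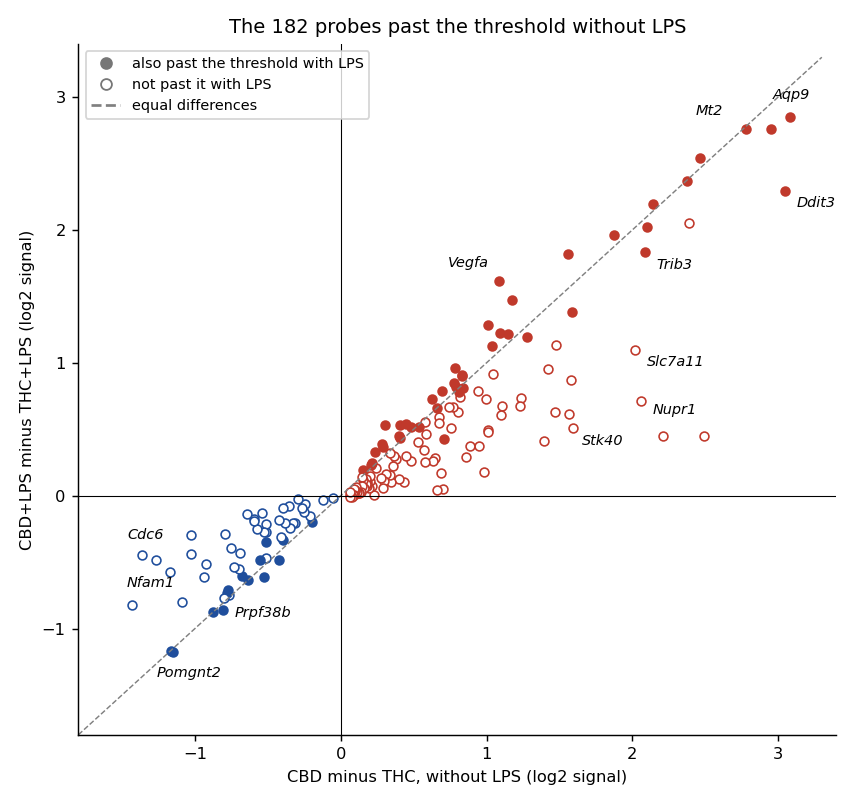
Each point is 1 of the 182 probes called without LPS, with the CBD minus THC difference without LPS on the horizontal axis and the CBD+LPS minus THC+LPS difference on the vertical axis (both log2 signal); red and blue mark probes higher and lower without LPS, and filled points were also called with LPS. Mt2 and Aqp9 lie near the line of equal differences, and Nupr1 and Slc7a11 lie below it at 0.72 and 1.096.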

How the data were processed

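RNA of BV-2 cells was hybridised by the authors to Illumina MouseRef-8 bead arrays. The deposited intensity of each probe is its mean bead signal without normalization, and the deposited detection p-value sets it against that array's negative controls. The log2 values deposited by the authors, reproduced here to within 5e-09 by quantile normalization of uncorrected signals, were used as an alternative. Groups were taken from the labels.

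Signals were corrected for background and quantile normalized by neqc of limma (offset 16). One linear model with 6 group means covered all 24 arrays, and moderated tests gave each comparison, adjusted by Benjamini-Hochberg over 24611 probes without a filter. R 4.3.3 and limma 3.58.1 were used. Every p beside fewer than 10 arrays comes from limma. A probe was detected at a detection p under 0.05. Intervals are 95%. The number of arrays limits the precision.

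Symbols came from the platform annotation, updated through gene identifiers (19852 probes with 1 symbol, 4759 without). A gene is given from its brightest probe, and no probe matched Gpr55 by name. Named genes are the 10 largest rises and 10 largest falls among called genes, up to 4 called members of each list, and 20 fixed names, and all further list members were chosen after their values were seen. The members and the 29 gene lists (633 of 720 genes measured) were chosen with earlier results of these data known. The model fit, without the normalization, was also run on simulated log2 values with the same change on both CBD arrays. That setting lacks the inequality of the real CBD arrays, so that it cannot tell how this or the normalization affects the calls. Whether replicate numbers pair the samples is not known, and the main fit used no pairing. The deviations of CBD and THC arrays of the same number correlated at 0.0158 and 0.174. With only 2 CBD arrays these values cannot decide the question. Alternatives are given in the closing section. The study's PCR values were not analysed here.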

Additional observations from a re-analysis of the deposited data

Results flagged for a closer look

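In 98 groups of 4 or 6 arrays, taken over 49 genes, 6 had an array far from the others, where chance alone flags about 1 group in 20. Among the THC arrays, Hspa5 was low on THC replicate 1 at 8.90, with the next array at 9.65, and Bbc3 was low on the same array at 7.72, with the next at 7.75. Nupr1 was low on THC replicate 3 at 10.30, with the next at 11.22, and Ddit3 was high on THC replicate 4 at 9.34, with the next at 9.01. Among the control arrays, Pomgnt2 was high on control replicate 1 at 11.38, with the next at 10.94, and Pparg was low on it at 7.65, with the next at 7.70.

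The difference between the compounds changed with LPS at 2 probes by limma's test of the change itself. Pi16, a peptidase inhibitor, had 7.66 and 7.71 with CBD+LPS and 7.66 to 7.72 with THC+LPS, against 7.99 and 7.91 with CBD and 7.70 to 7.73 with THC, and the change was -0.23 (adjusted p = 0.0136). Pi16 was detected on both CBD arrays but on no THC or control array, so that the THC and control values are at background and the size of the change is uncertain. An unnamed bright probe had 14.21 and 14.32 with CBD+LPS and 14.53 to 14.64 with THC+LPS, whereas it had 14.79 and 14.71 with CBD and 14.46 to 14.64 with THC, and the change was -0.52 (adjusted p = 0.0136).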

How the results depend on the processing

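All 182 called probes kept their direction in every alternative that tested them. Probe counts below are higher and then lower with CBD, against 128 and 54. They were 5 and 0 when arrays were scaled by their medians rather than by quantiles, 198 and 132 with detected probes only, 14 and 10 with the replicate number as a block, 0 and 0 with the 6 CBD and THC arrays alone (limma; 1105 and 899 at an unadjusted p under 0.05), and 413 and 264 at an unadjusted p of 0.005 or less. Median scaling called only higher probes (100% against 70.33%), with 150 higher and 97 lower at an unadjusted p under 0.05. Leaving out 1 array gave 11 to 432 higher and 2 to 224 lower probes. Whether arrays that share a replicate number belong together is not known, and the fit with the block kept 6 of the 38 called genes named by rule. The cause of these changes was not tested.

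Stress response regulators called higher, 6 in all, numbered 1 with median scaling, 1 with the block, 0 with 6 arrays, 12 at the unadjusted threshold and 1 to 9 without 1 array. Amino acid enzymes, transporters and cytosolic synthetases called higher, 6 in all, numbered 0, 0, 0 and 13 in the same settings, 11 with detected probes only and 0 to 9 without 1 array. G1/S and replication genes called lower, 3 in all, numbered 0, 1, 0 and 10 in these settings, 7 with detected probes only, 5 with the authors' log2 values, 6 with a trended robust prior and 0 to 13 without 1 array. Probes higher both without and with LPS, 43 in all, numbered 3 with median scaling, 86 with detected probes only, 7 with the block, 167 at the unadjusted threshold and 7 to 108 without 1 array. Those lower in both, 14 in all, numbered 0, 29, 4 and 58, 6 with array weights and 1 to 29 without 1 array. Of the genes not called in any of these settings, Hmgcs1 turned to -0.1133 with median scaling, and without 1 array it ranged from -0.0204 (without THC replicate 1) to 0.3195. Cnr2 ranged from -0.1227 to 0.0179 (without CBD replicate 2), and was 0.0016 without THC replicate 3. Mt1 ranged from -0.0537 to 0.0132 (without CBD replicate 1), and was 0.0014 without THC replicate 1. Low signals over background limit dim genes, since 51.4% of probes were detected on none of the 6 arrays.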
